A study of Mus musculus with 8 samples.

Results

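Scavenger receptors are surface and lysosomal proteins with which macrophages take up bacteria, modified lipoproteins, hemoglobin and cell debris, and the mannose receptor is the lectin that takes up mannose-rich glycoproteins. The set described here has 9 members of the 55401 genes in the count table, found by mouse symbol: Marco, Msr1, Cd163, Mrc1, Cd68, Scarb1, Stab1, Olr1 and Colec12. The set was chosen by family and by measured values, since Marco and Cd163 were selected on their levels across the 4 groups of these samples. Marco, Cd163 and Mrc1 are therefore described with levels, fold changes and errors and with no test, and the other 6 members carry the call of a fit across all genes. All 9 members were among the 17470 genes that passed the filter on low counts.

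The cells were BMDM, macrophages grown in culture from mouse bone marrow, of mice with loxP sites in both alleles of Mettl3, which encodes the catalytic subunit of the m6A mRNA methyltransferase. KO cells (Lyz2-Cre-Mettl3fl/fl) also carried Cre recombinase driven by the Lyz2 promoter, active in myeloid cells, and WT cells (Mettl3fl/fl) had no Cre, so an effect of Cre and one of Mettl3 loss cannot be told apart. Stimulated cells of each genotype received LPS (lipopolysaccharide, sensed by TLR4) at 50 ng/ml overnight and then nigericin, which lets potassium out of the cell and so triggers NLRP3, at 10 µM for 3 h, and the remaining cells received PBS. Each of the 4 groups (stimulated KO, KO with PBS, stimulated WT, WT with PBS) had 2 libraries, with 55032057 to 65487739 counts each.

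No label tells whether both libraries of a group stem from different mice or cultures. The p-values therefore cover the spread among these libraries alone, and it may be technical. Mettl3 had 9.08 and 7.87 CPM (a gene's counts relative to the composition-adjusted total of its library) in stimulated KO cells against 28.2 and 23.4 CPM in stimulated WT cells. With PBS it had 5.63 and 6.33 CPM in KO cells against 13.6 and 13.3 CPM in WT cells. Lyz2, the gene whose promoter drives Cre, had 14744 to 17514 CPM in the 4 KO libraries and 32222 to 35400 CPM in the 4 WT libraries. All 14 macrophage markers, Lyz2 among them, were detected. Their summed level was 31357 to 33767 CPM in the 4 KO libraries and 47090 to 51934 CPM in the 4 WT libraries, with no overlap. Most of this gap lay in Lyz2. In the fit across all genes 1 of the 14 was higher and 3 were lower in KO cells in each treatment, and 10 gave no call. Of all tested genes 2.91% were higher and 2.01% lower after stimulation, and 1.20% and 0.355% with PBS. The median log2 difference of the 14 was 0.07 after stimulation and 0.17 with PBS. Markers of other cell types were detected too. Of the neutrophil, dendritic cell and T and NK cell markers only Ly6g, Flt3 and Cd3e were at 0 in every library, and over all libraries the lists summed to 189 to 354, 1.42 to 4.55 and 5.16 to 21.2 CPM. Fewer cells of a type and less RNA per cell cannot be told apart in these bulk samples. As a check on RNA quality, the 4 nuclear transcripts Malat1, Neat1, Kcnq1ot1 and Meg3 were summed. Their sums were 397 to 812 CPM in stimulated WT cells and 457 to 474 CPM in stimulated KO cells. With PBS they were 712 to 902 CPM in WT cells and 544 to 649 CPM in KO cells. A part of RNA quality in the differences between groups was not tested.

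The members belong to several structural classes. MARCO, MSR1 (scavenger receptor A) and COLEC12 are class A receptors with collagen-like stalks: MARCO binds bacteria and inhaled particles, MSR1 binds modified low-density lipoprotein, and COLEC12 also carries a lectin domain. CD163 takes up haptoglobin-hemoglobin complexes. MRC1 (CD206) is the macrophage mannose receptor and a widely used marker of alternative activation. CD68 is a lysosomal glycoprotein of the LAMP family and SCARB1 is the receptor for high-density lipoprotein. STAB1 (stabilin-1) clears the matrix protein SPARC and modified lipoproteins, and OLR1 (LOX-1) binds oxidized low-density lipoprotein. In GENCODE M21 (GRCm38) Marco (ENSMUSG00000026390) lies at chr1:120474538-120505024, minus strand, and Msr1 (ENSMUSG00000025044) lies at chr8:39581685-39642673, minus strand. Cd163 (ENSMUSG00000008845) lies at chr6:124304656-124330527, plus strand, and Mrc1 (ENSMUSG00000026712) lies at chr2:14229392-14332057, plus strand. Cd68 (ENSMUSG00000018774) lies at chr11:69664213-69666153, minus strand, and Scarb1 (ENSMUSG00000037936) lies at chr5:125277087-125341094, minus strand. Stab1 (ENSMUSG00000042286) lies at chr14:31139013-31168641, minus strand, and Olr1 (ENSMUSG00000030162) lies at chr6:129485244-129507165, minus strand. Colec12 is ENSMUSG00000036103.

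The promoters of 4 members are shown because the results turn on them: Marco, Mrc1 and Olr1 had the largest responses to stimulation and Cd163 the largest genotype difference after it. Each is the 250 bases before the gene's start in RefSeq (GRCm38.p6, the build of the files), read 5′ to 3′ on the gene's strand. Marco lies at chr1:120505025-120505274 on the minus strand, Cd163 at chr6:124304401-124304650 on the plus strand, Mrc1 at chr2:14229164-14229413 on the plus strand and Olr1 at chr6:129507166-129507415 on the minus strand. Capitals mark the letters GAGGAA, or their complement, of the myeloid factor PU.1 and TGANTCA of AP-1.
Marco: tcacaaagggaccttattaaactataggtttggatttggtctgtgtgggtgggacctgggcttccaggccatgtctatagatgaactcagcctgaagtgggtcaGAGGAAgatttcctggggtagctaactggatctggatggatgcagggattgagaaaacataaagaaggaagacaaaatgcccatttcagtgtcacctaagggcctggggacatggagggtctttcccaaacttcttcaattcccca
Cd163: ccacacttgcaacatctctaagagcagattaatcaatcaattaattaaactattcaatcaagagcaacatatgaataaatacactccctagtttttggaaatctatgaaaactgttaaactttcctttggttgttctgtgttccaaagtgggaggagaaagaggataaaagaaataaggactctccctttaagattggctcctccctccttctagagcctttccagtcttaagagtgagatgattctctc
Mrc1: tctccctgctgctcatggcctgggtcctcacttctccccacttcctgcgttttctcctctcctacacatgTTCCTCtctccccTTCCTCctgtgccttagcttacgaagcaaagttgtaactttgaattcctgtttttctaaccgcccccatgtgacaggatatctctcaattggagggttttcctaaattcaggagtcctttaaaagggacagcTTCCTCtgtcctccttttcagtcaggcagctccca
Olr1: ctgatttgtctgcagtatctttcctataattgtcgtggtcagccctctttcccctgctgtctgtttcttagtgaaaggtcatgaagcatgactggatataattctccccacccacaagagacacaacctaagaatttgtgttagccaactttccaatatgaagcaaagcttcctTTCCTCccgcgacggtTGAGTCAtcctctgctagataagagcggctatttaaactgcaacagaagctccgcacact

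A promoter entry was at hand for 6 of the 9 members, those above and Cd68 and Stab1. On either strand, GAGGAA stood in 5 of these 6, all but Cd163, and in 23.3% of 32851 promoters of the same length. TGANTCA stood in Olr1 and Cd68 and in 6.75% of all promoters. The NF-kB letters GGG and, after 5 further bases, CC stood in Marco, Mrc1 and Cd163, as in 45.8% of all promoters. In the printed promoters no PU.1 match overlapped an AP-1 match. CACATG, an E-box, stood in Mrc1 and Stab1 (12.3% of all promoters), and C/EBP letters (TTGC, 2 bases, AA) in Cd68 (9.56%). STAT (TTC, 3 bases, GAA), interferon response (GAAA, 2 bases, GAAA) and NRF2 letters (TGAC, 3 bases, GC) stood in 0 of the 6 and in 7.02%, 2.98% and 10.2% of all promoters. Marco and Cd163 had 0 CG dinucleotides in the window, against a median of 6 over all promoters, and the GC content of Cd163 was 36.8% against a median of 52.4%. These letter matches describe the sequence and are not evidence that a factor binds there.

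The class A receptors Marco and Msr1 were higher after LPS and nigericin in both genotypes, and the third, Colec12, was lower. Marco had 582 and 551 CPM in stimulated KO cells against 12.4 and 12.0 CPM in KO cells with PBS. In WT cells it had 732 and 740 CPM after stimulation against 3.79 and 3.65 CPM with PBS. The groups did not overlap, and their order was stimulated WT, stimulated KO, KO with PBS and WT with PBS. The log2 response of Marco was 5.54 ± 0.07 in KO cells (SE, n = 2 per group), a 46.5-fold difference, and 7.63 ± 0.08 in WT cells, a 198-fold difference. Among the 8643 genes whose mean was 10 CPM or more, this was the 73rd largest response in KO cells and the 29th largest in WT cells. Marco was chosen on these same levels, so its ranks here and below only describe it and lend no support.

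Msr1 followed the same order of groups over a narrower range. It had 845 and 857 CPM in stimulated KO cells against 209 and 210 CPM in KO cells with PBS, and in WT cells 930 and 948 CPM after stimulation against 188 and 182 CPM with PBS. Its rise was 2.02 ± 0.06 on the log2 scale in KO cells (adjusted p = 1.09e-06, edgeR quasi-likelihood test with Benjamini-Hochberg adjustment) and 2.34 ± 0.06 in WT cells (adjusted p = 5.87e-07). Colec12, the lectin-bearing receptor of the class, had 14.7 and 16.8 CPM in stimulated KO cells against 72.1 and 68.0 CPM in KO cells with PBS. In WT cells it had 14.7 and 12.2 CPM after stimulation against 71.5 and 74.1 CPM with PBS. Colec12 fell by 2.15 ± 0.12 on the log2 scale in KO cells (edgeR adjusted p = 1.71e-05) and by 2.44 ± 0.12 in WT cells (edgeR adjusted p = 1.05e-05). The PBS groups of the genotypes overlapped, and the stimulated groups met at 14.7 CPM.

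**Figure D1:**
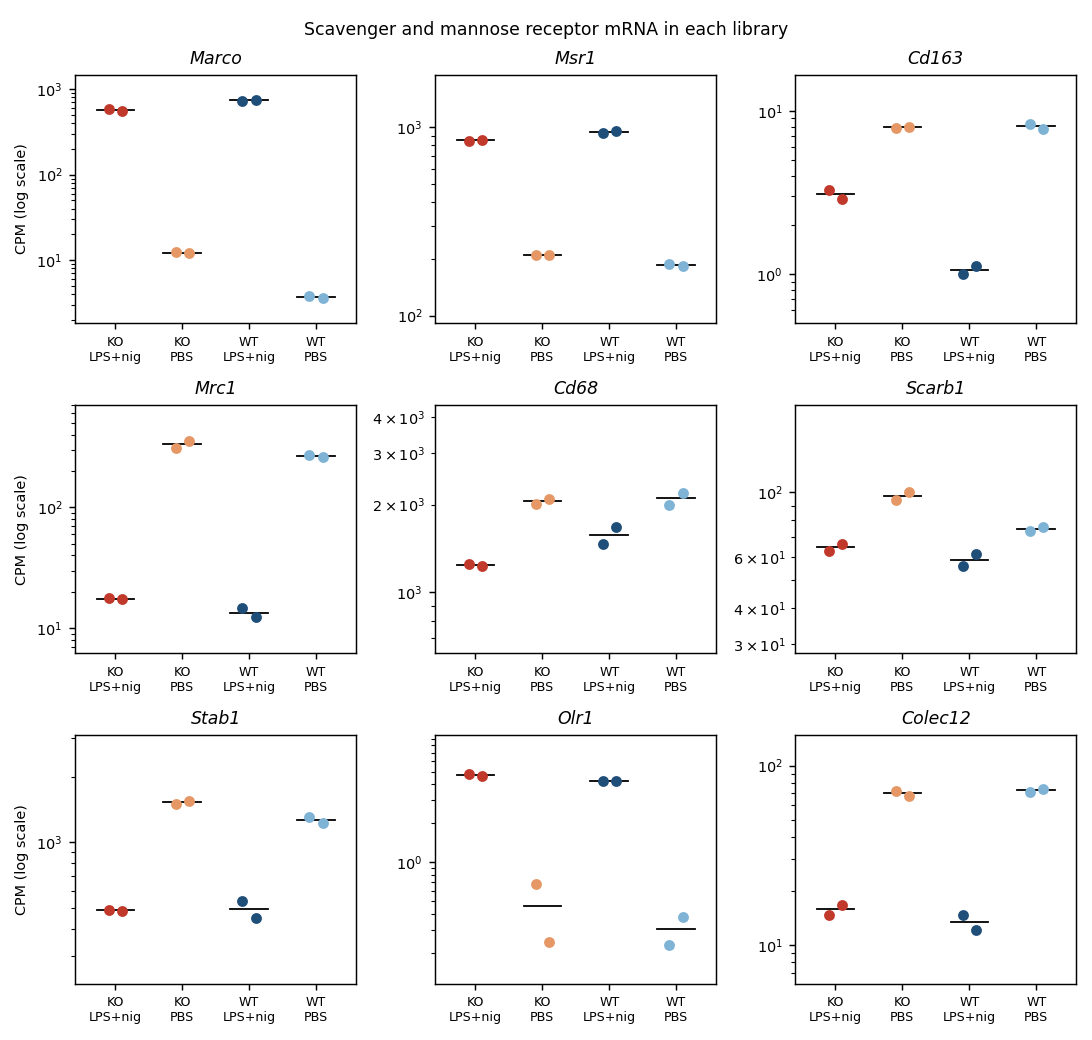
Level of each of the 9 receptors in every library (CPM, log axis), with points for the 2 libraries of a group and a line at their mean. Marco, Msr1 and Olr1 are higher in stimulated than in PBS libraries of both genotypes and the other 6 are lower; Cd163 is at 3.27 and 2.91 CPM in stimulated KO and at 1.00 and 1.12 CPM in stimulated WT libraries.

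The hemoglobin receptor Cd163 was a low-level gene and was lower after stimulation in both genotypes. It had 3.27 and 2.91 CPM in stimulated KO cells (181 and 191 counts) against 7.90 and 8.03 CPM in KO cells with PBS. In WT cells it had 1.00 and 1.12 CPM after stimulation (55 and 65 counts) against 8.36 and 7.78 CPM with PBS. The PBS groups overlapped, while each stimulated group stood apart from every other group. The log2 response of Cd163 was -1.37 ± 0.15 in KO cells, a 2.58-fold lower level, and -2.93 ± 0.16 in WT cells, a 7.602-fold lower level.

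The mannose receptor Mrc1 had the largest fold decrease in the set in both genotypes, though Stab1 and Cd68 lost more CPM in both. It had 17.8 and 17.3 CPM in stimulated KO cells against 312 and 353 CPM in KO cells with PBS, and in WT cells 14.6 and 12.4 CPM after stimulation against 272 and 262 CPM with PBS. No groups overlapped, and within each treatment both KO libraries were above both WT libraries. The log2 response of Mrc1 was -4.25 ± 0.11 in KO cells, 19.0-fold lower, and -4.31 ± 0.11 in WT cells, 19.8-fold lower.

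Cd68 and Scarb1 moved little. Cd68 had 1254 and 1236 CPM in stimulated KO cells against 2015 and 2086 CPM in KO cells with PBS, and in WT cells 1469 and 1670 CPM after stimulation against 1999 and 2200 CPM with PBS. It fell by 0.72 ± 0.08 in KO cells (edgeR adjusted p = 4.87e-04) and by 0.42 ± 0.08 in WT cells (edgeR adjusted p = 0.00565), both on the log2 scale. The PBS groups overlapped, and both stimulated KO libraries were below both stimulated WT libraries. Scarb1, the lipoprotein receptor, had 63.0 and 66.3 CPM in stimulated KO cells against 94.0 and 99.96 CPM in KO cells with PBS, and in WT cells 55.8 and 61.4 CPM after stimulation against 73.7 and 75.7 CPM with PBS. It fell by 0.58 ± 0.08 on the log2 scale in KO cells (edgeR adjusted p = 0.00118) and by 0.35 ± 0.08 in WT cells (edgeR adjusted p = 0.0113). Without replicate 2 of WT with PBS the call of Scarb1 in WT cells was lost (adjusted p = 0.0609).

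Stab1, the receptor for SPARC, had 491 and 484 CPM in stimulated KO cells against 1493 and 1554 CPM in KO cells with PBS. In WT cells it had 539 and 450 CPM after stimulation against 1310 and 1227 CPM with PBS. It fell by 1.65 ± 0.09 on the log2 scale in KO cells (edgeR adjusted p = 1.99e-05) and by 1.36 ± 0.09 in WT cells (edgeR adjusted p = 4.72e-05). The stimulated groups of the genotypes overlapped, while both KO libraries with PBS were above both WT libraries with PBS.

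Olr1 was the least abundant member with PBS. It had 4.81 and 4.60 CPM in stimulated KO cells (266 and 302 counts) against 0.68 and 0.24 CPM in KO cells with PBS (40 and 15 counts). In WT cells it had 4.22 and 4.25 CPM after stimulation against 0.23 and 0.38 CPM with PBS (15 and 25 counts). Olr1 rose by 3.35 ± 0.46 on the log2 scale in KO cells (edgeR adjusted p = 0.00130) and by 3.79 ± 0.48 in WT cells (edgeR adjusted p = 8.32e-04). The PBS groups overlapped, and the response in KO cells ranged from 2.78 to 4.28 when 1 library at a time was left out. Of the 6 members with a test, 2 rose (Msr1 and Olr1) and 4 fell in each genotype. Of all tested genes 39.1% were called in KO cells (20.2% higher, 19.0% lower) and 40.5% in WT cells (20.6% higher, 20.0% lower).

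**Figure D2:**
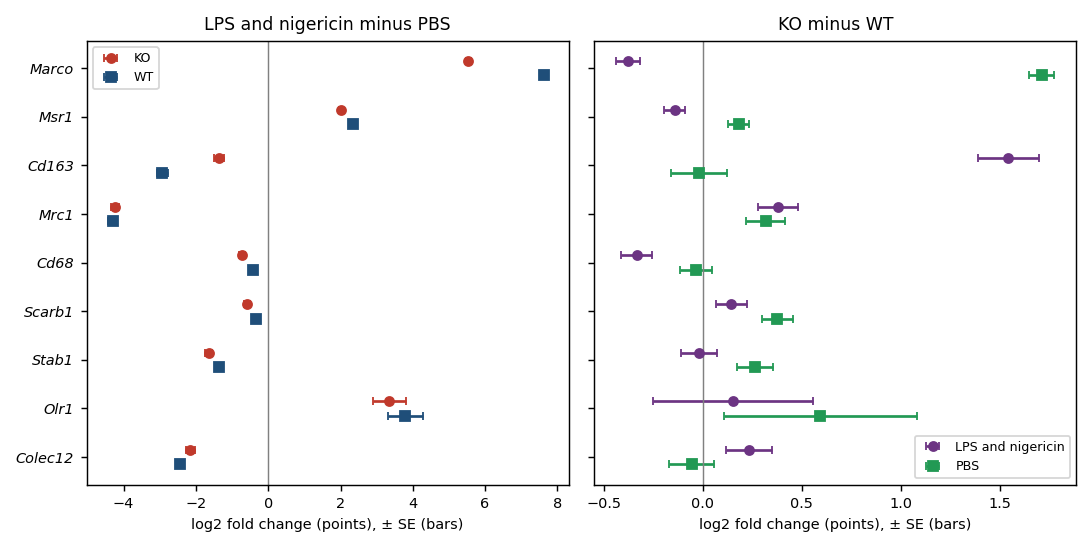
Log2 fold change (points) with its standard error (bars) for each receptor, on the left for LPS and nigericin minus PBS in each genotype and on the right for KO minus WT in each treatment. The responses of Marco (5.54 in KO, 7.63 in WT) and Cd163 (-1.37 in KO, -2.93 in WT) lie farthest apart, and Marco is the member farthest above 0 with PBS (1.71) and Cd163 the one farthest above 0 after stimulation (1.54).

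Between genotypes, Marco had the largest difference in the set with PBS and Cd163 the largest after stimulation. With PBS, Marco averaged 12.2 ± 0.27 CPM in KO cells and 3.72 ± 0.10 CPM in WT cells (SD, n = 2 each), a log2 difference of 1.71 ± 0.07 (SE) or 3.27-fold. By size this was the 28th of those 8643 genes. After stimulation Marco averaged 566 ± 21.6 CPM in KO cells and 736 ± 5.15 CPM in WT cells, a log2 difference of -0.38 ± 0.06, or -0.24 when libraries were scaled by their size alone. The KO libraries were thus all above the WT libraries with PBS and all below them after stimulation.

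Cd163 averaged 3.09 ± 0.26 CPM in KO cells and 1.06 ± 0.08 CPM in WT cells after stimulation, a log2 difference of 1.54 ± 0.15 or 2.91-fold. With PBS it averaged 7.96 ± 0.09 CPM in KO cells and 8.07 ± 0.42 CPM in WT cells, a log2 difference of -0.02 ± 0.14. Mrc1 averaged 17.5 ± 0.32 CPM in KO cells and 13.5 ± 1.58 CPM in WT cells after stimulation, and 333 ± 28.8 CPM in KO cells and 267 ± 7.35 CPM in WT cells with PBS. Its log2 differences were 0.38 ± 0.10 after stimulation and 0.32 ± 0.10 with PBS, so they were of like size in both treatments.

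The other 6 receptors gave no call between genotypes. After stimulation, edgeR's quasi-likelihood test called 0 of the 6, against 4.92% of all tested genes (2.91% higher, 2.01% lower). Msr1 (-0.14 ± 0.05) and Cd68 (-0.33 ± 0.08, adjusted p = 0.0690) had an unadjusted p below 0.05. DESeq2 called 1 of the 6, Cd68 (adjusted p = 0.0170), and without replicate 1 of stimulated WT the call of Cd68 passed in edgeR too (adjusted p = 0.0465). The other log2 differences after stimulation lay between -0.02 (Stab1) and 0.23 (Colec12).

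With PBS, edgeR called 0 of the 6 against 1.55% of all tested genes (1.20% higher, 0.355% lower). Msr1 (0.18 ± 0.05), Scarb1 (0.38 ± 0.08, adjusted p = 0.0813) and Stab1 (0.26 ± 0.09, adjusted p = 0.241) had an unadjusted p below 0.05. DESeq2 called 1 of the 6, Scarb1 (adjusted p = 0.00619). The call of Scarb1 also passed in edgeR with library size alone (adjusted p = 0.0399) and with a filter of 5 CPM in 2 libraries (adjusted p = 0.0477). Olr1 with PBS rests on 15 to 40 counts per library, and its log2 difference of 0.59 ± 0.49 ranged from -0.33 to 1.16 when 1 library at a time was left out.

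The responses themselves were compared between genotypes as the response of KO cells minus that of WT cells. For Marco this difference was -2.09 ± 0.09 on the log2 scale, the 22nd largest of the 8643 genes, and for Cd163 it was 1.56 ± 0.21. Mrc1 differed by 0.06 ± 0.14. Of the 6 members with a test, edgeR called 0, against 0.498% of all tested genes (0.103% higher, 0.395% lower). Msr1 (-0.32 ± 0.08, adjusted p = 0.174) and Cd68 (-0.30 ± 0.11, adjusted p = 0.397) had an unadjusted p below 0.05, and DESeq2 called 1, Msr1 (adjusted p = 0.0309). These 5 comparisons share their libraries, so they are not independent of each other.

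Markers of other cell types moved with genotype too. For the counts below, 2.91% of all tested genes were higher in KO after stimulation and 1.20% with PBS. The summed level of 10 fibroblast and stromal markers was 341 to 380 CPM in stimulated KO cells and 133 to 135 CPM in stimulated WT cells, with 8 of 10 higher in KO. With PBS it was 293 to 313 CPM in KO cells and 190 to 213 CPM in WT cells, with 2 of 10 higher, and none of the 10 was at 0 in all libraries. The 8 B and plasma cell markers summed to 39.9 to 48.4 CPM in stimulated KO cells and 11.1 to 14.7 CPM in stimulated WT cells, with 4 higher in KO. With PBS the sums overlapped, though 2 of the markers were higher in KO. The 9 endothelial markers summed to 147 to 157 CPM in KO cells with PBS and 57.2 to 59.4 CPM in WT cells with PBS, mostly from Vwf, and 1 was higher in KO. The 10 neutrophil markers summed to 353 to 354 CPM in stimulated KO cells and 274 to 284 CPM in stimulated WT cells, and to 269 to 297 CPM in KO cells with PBS and 189 to 208 CPM in WT cells with PBS, with 1 higher in KO in each treatment. The 7 monocyte markers summed to 41.3 to 45.6 CPM in stimulated KO cells and 25.3 to 33.2 CPM in stimulated WT cells, where 0 were called. With PBS they summed to 9.70 to 11.7 CPM in KO cells and 4.74 to 5.94 CPM in WT cells, and 1 was higher in KO. The low dendritic cell sums were also higher in KO cells, without overlap, in both treatments, but 0 of the 5 tested markers were called in either. The T and NK cell sums of the genotypes overlapped in both treatments. Their part in the differences of Marco, Cd163 and the other receptors was not tested.

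Levels of different receptors were compared per kilobase of exon. Cd68 was the most abundant receptor mRNA in every group, at 990 ± 10.1 CPM per kb in stimulated KO cells, 1631 ± 39.5 in KO cells with PBS, 1249 ± 113 in stimulated WT cells and 1670 ± 113 in WT cells with PBS (SD, n = 2 each). Marco was second in both stimulated groups and seventh in both PBS groups. Its share of the summed CPM per kb of the 9 receptors was 19.9% in stimulated KO cells against 0.335% in KO cells with PBS, and 20.8% in stimulated WT cells against 0.103% in WT cells with PBS. Stab1 was second with PBS, at 7.83% in KO cells and 6.56% in WT cells. Msr1 held 9.07% in stimulated KO cells against 1.75% in KO cells with PBS, and 8.06% in stimulated WT cells against 1.55% in WT cells with PBS. The share of Mrc1 was 0.186% in stimulated KO cells against 2.76% in KO cells with PBS, and 0.116% in stimulated WT cells against 2.23% in WT cells with PBS. Cd163 was last in both stimulated groups and Olr1 last in both PBS groups. With the longest transcript as length, the share of Msr1 was 14.4% in stimulated KO and 12.9% in stimulated WT cells. Msr1 then ranked 3 and Mrc1 4 in WT cells with PBS, the reverse of their order over all exons.

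**Figure D3:**
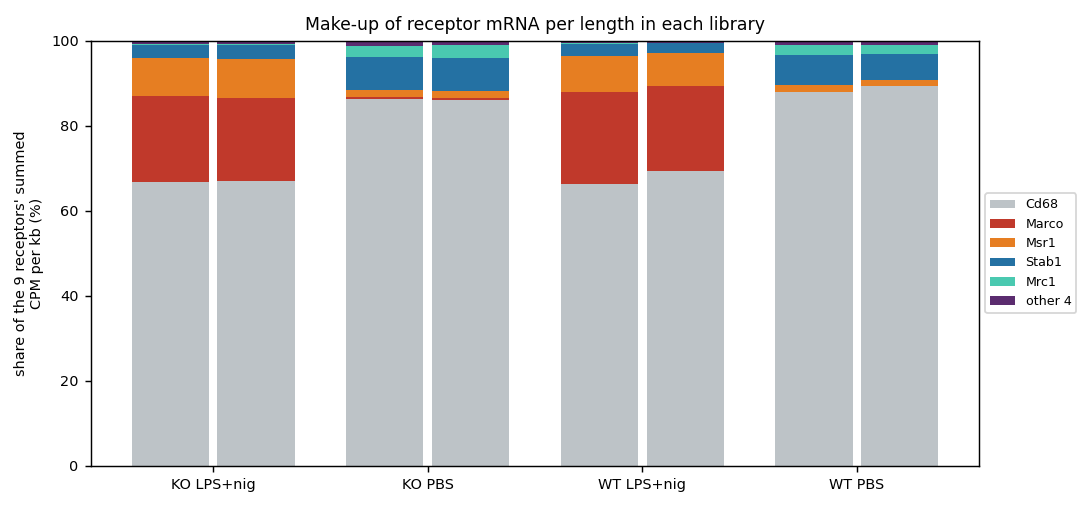
Share of each receptor in the summed level of the 9 receptors per kilobase of exon (percent, 1 bar per library), with Cd163, Scarb1, Olr1 and Colec12 together as other 4. The red Marco band takes 19.9% in stimulated KO and 20.8% in stimulated WT cells and is under 1% in the PBS bars, where Cd68 (grey) and Stab1 (blue) take most of the sum.

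The genes most like Marco, Cd163 and Mrc1 were found by the root mean square difference of mean-centred log2 CPM over the 8 libraries, among the 8636 other genes whose mean was 10 CPM or more. The libraries share their 4 groups, so likeness mostly reflects the group means. Marco was nearest to H2-Q6 (0.145), a class I histocompatibility gene whose counts may be shared with a near-identical neighbour, then to Cd38 (0.280) and Gm34643 (0.312). Cd38, an NAD-consuming surface enzyme, had 497 and 503 CPM in stimulated KO cells against 6.18 and 6.94 CPM in KO cells with PBS, and in WT cells 445 and 455 CPM after stimulation against 2.58 and 2.86 CPM with PBS. Like Marco it was higher in KO than in WT cells with PBS, but after stimulation KO was above WT.

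Cd163 was nearest to Emb (0.268), which encodes the membrane glycoprotein embigin, Ighm (0.332), the immunoglobulin mu chain, and Plaur (0.343), the urokinase receptor. Over the 4 group means in place of the 8 libraries, Tnfrsf26 was nearest to Cd163 (0.171) and of these 3 genes only Emb remained among the nearest 3; for Marco and for Mrc1, 2 of 3 remained. Emb had 70.5 and 68.0 CPM in stimulated KO cells against 227 and 242 CPM in KO cells with PBS, and in WT cells 35.2 and 38.1 CPM after stimulation against 171 and 192 CPM with PBS. Mrc1 was nearest to Kctd12b (0.196), Pparg (0.248), the lipid-sensing nuclear receptor, and Rasgrp3 (0.274), a Ras activator. Pparg had 1.94 and 1.78 CPM in stimulated KO cells against 38.8 and 47.6 CPM in KO cells with PBS, and in WT cells 1.96 and 2.22 CPM after stimulation against 40.1 and 41.9 CPM with PBS.

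Of 18 further scavenger receptor genes 14 were tested. In KO cells 3 rose and 5 fell on stimulation, with a median log2 change of -0.64, and in WT cells 3 rose and 7 fell, with a median of -1.12. Over all tested genes the medians were -0.03 and -0.01, and 39.1% and 40.5% were called in either direction. Cd36, the class B receptor for long-chain fatty acids and oxidized lipoprotein, fell by 1.85 ± 0.08 in KO cells and by 1.26 ± 0.07 in WT cells on the log2 scale (edgeR adjusted p = 4.94e-06 and 2.33e-05). Cd5l, a secreted cysteine-rich scavenger protein, fell by 3.07 ± 0.08 in KO cells and by 2.16 ± 0.08 in WT cells (edgeR adjusted p = 9.77e-07 and 2.97e-06). Scarf1, an endocytic receptor for acetylated lipoprotein, rose by 1.85 ± 0.10 in KO cells and by 1.76 ± 0.10 in WT cells (edgeR adjusted p = 1.71e-05 and 2.22e-05). Stab2, the paralog of Stab1, was at 0 in both stimulated KO libraries against 5.89 and 7.30 CPM in KO cells with PBS, and in WT cells it had 0.00 and 0.21 CPM after stimulation against 4.40 and 4.90 CPM with PBS.

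Cd36 and Cd5l also differed between genotypes after stimulation. Cd36 had 151 and 166 CPM in stimulated KO cells against 378 and 377 CPM in stimulated WT cells, a fall of 1.25 ± 0.07 on the log2 scale (edgeR adjusted p = 0.00102). With PBS it had 591 and 558 CPM in KO cells against 939 and 871 CPM in WT cells. That difference of -0.66 ± 0.07 (edgeR adjusted p = 0.0127) was lost without replicate 1 or 2 of KO with PBS or replicate 1 of WT with PBS (adjusted p up to 0.0888). Cd5l had 29.6 and 27.6 CPM in stimulated KO cells against 60.0 and 63.8 CPM in stimulated WT cells, a fall of 1.11 ± 0.08 (edgeR adjusted p = 0.00133). Both were thus lower in KO cells, while Cd163, in the same cysteine-rich family as Cd5l, was higher.

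Of 19 other mannose receptor family and lectin genes, not all of them endocytic receptors, 10 were tested. On stimulation 4 rose, Lman1 among them (0.90 in KO and 0.91 in WT cells), and 3 fell in each genotype. Their median was 0.21 in KO cells and 0.26 in WT cells. Of all tested genes 39.1% and 40.5% were called in either direction. Clec4e (Mincle), a receptor for mycobacterial glycolipid, rose by 6.65 ± 0.20 in KO cells and by 6.90 ± 0.20 in WT cells on the log2 scale (edgeR adjusted p = 1.62e-06 and 1.38e-06). Clec7a (Dectin-1), the beta-glucan receptor, fell by 4.40 ± 0.14 in KO cells and by 3.85 ± 0.13 in WT cells (edgeR adjusted p = 1.66e-06 and 2.45e-06). Between genotypes, 2 of the 10 were higher in KO cells with PBS, against 1.20% of all tested genes. After stimulation 1 was higher and 1 lower, against 2.91% and 2.01%. Ly75 differed by 1.29 ± 0.15 on the log2 scale with PBS (edgeR adjusted p = 0.0128). Clec4n differed by 0.70 ± 0.12 with PBS and by -0.62 ± 0.12 after stimulation (edgeR adjusted p = 0.0434 and 0.0360). The Ly75 call and both Clec4n calls were lost without some single libraries. Mrc2, the collagen-binding paralog of Mrc1, had 6.98 and 4.40 CPM in stimulated KO cells against 1.82 and 1.70 CPM in stimulated WT cells (edgeR adjusted p = 0.0135). That call was lost without replicate 1 of stimulated KO or either stimulated WT library (adjusted p up to 0.0734).

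Genes that act with CD163 in haptoglobin, heme and iron handling were listed together with ligand genes (Hmgb1, Sparc, Hspa1a, Hspa1b and Calr). The genes of this list moved in several directions. Of 14 tested, 6 rose and 3 fell on stimulation in KO cells and 8 rose and 3 fell in WT cells, with medians of 0.51 and 0.90. Of all tested genes 39.1% were called in KO cells and 40.5% in WT cells, in either direction. Among the 6 that rose in KO cells were the ligand genes Hspa1a (2.69), Hspa1b (2.41) and Calr (0.96). Without replicate 1 of stimulated KO or replicate 2 of KO with PBS, 1 in place of 3 fell in KO cells. Hp, haptoglobin itself, had 1033 and 1348 CPM in stimulated KO cells against 27.7 and 26.9 CPM in KO cells with PBS. In WT cells it had 799 and 844 CPM after stimulation against 9.35 and 10.7 CPM with PBS. The difference between KO and WT cells with PBS was 1.44 ± 0.14 on the log2 scale (edgeR adjusted p = 0.00584). Slc40a1, the iron exporter ferroportin, changed by -5.80 ± 0.25 in KO cells and by -5.22 ± 0.24 in WT cells (edgeR adjusted p = 5.60e-06 and 7.25e-06).

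Hmox1, heme oxygenase, had 1358 and 1354 CPM in stimulated KO cells against 2729 and 2982 CPM in stimulated WT cells, a fall of 1.07 ± 0.07 on the log2 scale (edgeR adjusted p = 0.00109). With PBS it had 901 and 842 CPM in KO cells against 937 and 901 CPM in WT cells. Hmox1 and Cd163 thus stood in opposite order between the stimulated groups. Slc48a1, a heme transporter, had 600 and 589 CPM in stimulated KO cells against 904 and 997 CPM in stimulated WT cells (edgeR adjusted p = 0.00518), a call lost without replicate 1 of stimulated KO (adjusted p = 0.0527). Sparc, the ligand of STAB1 and a product of stromal cells, had 85.0 and 72.1 CPM in stimulated KO cells against 30.9 and 30.2 CPM in stimulated WT cells (edgeR adjusted p = 0.00144). In this list of 14 genes 5 were lower and 2 higher in stimulated KO cells, against 2.01% lower and 2.91% higher of all tested genes; the 5 became 1 and 2 without replicates 1 and 2 of stimulated KO and 3 without replicate 2 of stimulated WT or either WT library with PBS, and the 2 became 1 without either stimulated KO library.

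**Figure D4:**
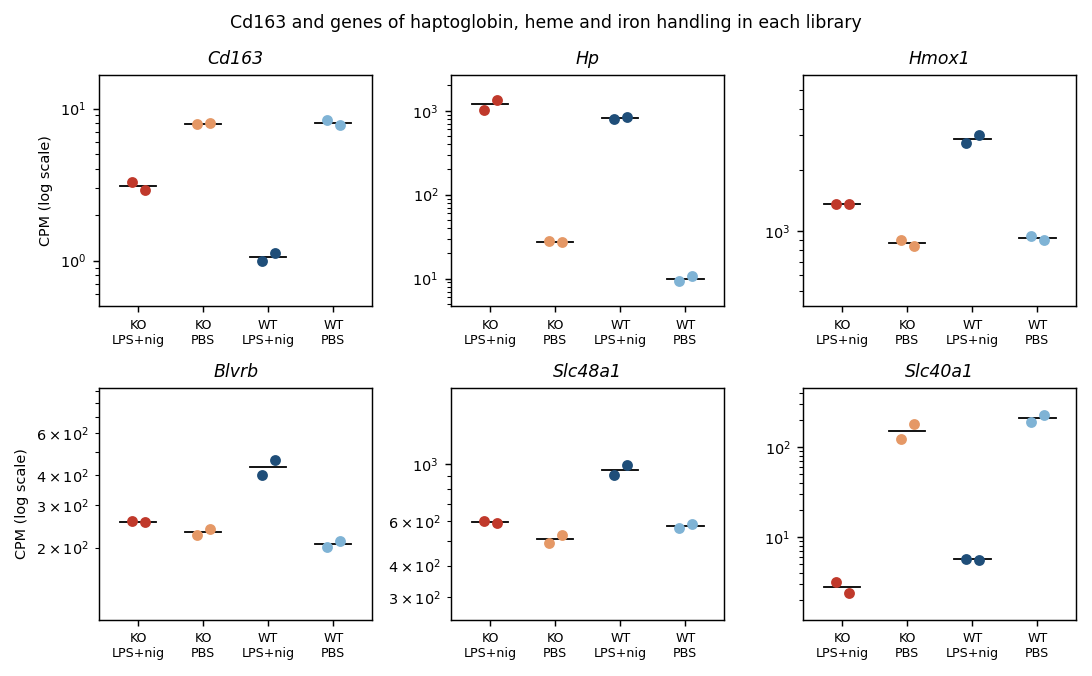
Level of Cd163 and of 5 genes of haptoglobin, heme and iron handling in every library (CPM, log axis), with points for the 2 libraries of a group and a line at their mean. Among stimulated libraries Cd163 is higher in KO and Hmox1 lower in KO (1358 and 1354 against 2729 and 2982 CPM in WT), while Slc40a1 is far lower after stimulation in both genotypes.

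The lipoprotein and cholesterol genes that act beside SCARB1, MSR1 and OLR1 were mostly lower after stimulation. Of 17 tested, 2 rose and 10 fell in KO cells and 4 rose and 10 fell in WT cells, with medians of -1.06 in each. Of all tested genes 20.2% were higher and 19.0% lower in KO cells, and 20.6% and 20.0% in WT cells. Lipa, the lysosomal lipase that frees cholesterol, fell by 2.56 ± 0.08 on the log2 scale in KO cells (edgeR adjusted p = 1.79e-06). Nr1h3, the oxysterol receptor LXR alpha, rose by 1.99 ± 0.07 in KO cells and by 2.40 ± 0.07 in WT cells (edgeR adjusted p = 2.21e-06 and 1.06e-06). In stimulated cells Lipa had 388 and 393 CPM in KO against 651 and 658 CPM in WT (edgeR adjusted p = 0.00492), a call lost without replicate 1 of stimulated KO (adjusted p = 0.0516).

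Among 25 genes known to regulate these receptors, all tested, 7 rose and 10 fell on stimulation in KO cells and 6 rose and 7 fell in WT cells. Of all tested genes 39.1% and 40.5% were called in either direction. The 7 became 4 without either stimulated KO library or replicate 2 of KO with PBS and 3 without replicate 1 of KO with PBS. The 6 became 2 without replicate 1 of WT with PBS, and with library size alone the 7 that fell in WT cells became 13. Pparg, which drives Mrc1 and Cd36 in mouse macrophages, changed by -4.54 ± 0.15 in KO cells and by -4.29 ± 0.15 in WT cells on the log2 scale (edgeR adjusted p = 2.09e-06 and 2.38e-06).

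Because METTL3 writes m6A within a consensus with the core letters GGACT, these letters were counted in the longest coding transcript of each receptor in GENCODE M21. They occurred 1.80 times per kilobase in Cd163, 1.67 in Mrc1 and 1.56 in Marco, against a median of 1.05 over 13276 genes. These were 8, 9 and 3 occurrences, at percentiles 83.9, 80.2 and 76.3 of those genes, so many genes had more per kilobase. Olr1 was lowest at 0.280 per kilobase, and the other 5 lay between 0.813 (Cd68) and 1.25 (Colec12). The count describes the letters and not methylation, which was not measured in these libraries.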

How the data were processed

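Per the labels' protocols RNA was extracted with Trizol and a commercial kit made the libraries; strandedness is not stated. The deposited values are whole-number counts, 1 for each gene in each library. The submitters' processing notes name Trimmomatic, Bowtie2, edgeR and the build mm10, without versions; the counting tool is not given in the sources used here. Counts cover whole genes. The series text also gives a shorter nigericin time than the labels.

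Genes were kept by filterByExpr (minimum count 10, total 15) and all 8 libraries were fitted together with TMM factors (0.888 to 1.07), a coefficient for each group and 4 residual df (edgeR 4.0.16, R 4.3.3). Calls are quasi-likelihood F tests, Benjamini-Hochberg adjusted over 17470 genes, below 0.05; SE is the unshrunk log2 change divided by the square root of F. CPM are scaled to the composition-adjusted library size. Members and gene lists were chosen with earlier results of these data known, and of each list up to 3 called genes with the smallest adjusted p per comparison, or a member's partner, are named. Alternatives were other scalings, filters, DESeq2 1.42.0, a replicate block, only the groups compared, and each library left out.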

Additional observations from a re-analysis of the deposited data

Results flagged for a closer look

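A genotype difference of opposite order with PBS and after stimulation, in every library, was looked for only in Marco, Cd163 and Mrc1. Of these, Marco met it: KO was above WT in all libraries with PBS and below WT in all libraries after stimulation. Its response in KO cells minus that in WT cells was -2.09 on the log2 scale. As Marco was chosen for this behaviour, the difference was not tested. Msr1 was not among the genes checked but had the same order in every library. Its log2 differences were smaller (0.18 with PBS and -0.14 after stimulation) and gave no call.

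In the surrounding lists, 5 genes had responses that differed between genotypes by the test of the difference itself (edgeR quasi-likelihood, response of KO minus response of WT, log2). They were Hmox1 (-0.998, adjusted p = 0.0140), Lipa (-0.94, adjusted p = 0.0230), Cd5l (-0.91, adjusted p = 0.0249), Blvrb, a biliverdin reductase (-0.92, adjusted p = 0.0322), and Clec4n (Dectin-2, -1.32, adjusted p = 0.0322). Each call was lost when some single libraries were left out: for Hmox1 either stimulated KO library or replicate 1 of WT with PBS (adjusted p up to 0.0823), and for Cd5l, Blvrb and Clec4n any library but replicate 1 of stimulated WT (adjusted p up to 0.107, 0.156 and 0.115). For Lipa it was lost without either stimulated KO library, replicate 2 of KO with PBS, replicate 2 of stimulated WT or replicate 1 of WT with PBS (adjusted p up to 0.117).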

How the results depend on the processing

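No called value of the 6 members with a test changed direction under any alternative run. Of 15 values of Marco, Cd163 and Mrc1, 7 moved by more than the spread between replicates with library size alone: the responses of Marco (5.46 in KO, 7.44 in WT, difference -1.98), Cd163 (-3.11 in WT) and Mrc1 (-4.49 in WT), and the genotype differences after stimulation of Marco (-0.24) and Cd163 (1.68). None of the 7 changed sign. The number of genes called between genotypes depended on the tool and the libraries more than the number called on stimulation. After stimulation, 860 genes differed by genotype; the count was 503 with only the groups compared, 1654 with DESeq2 and 156 to 594 with 1 library left out. With PBS, 271 became 45, 876 and 80 to 260. For the difference of responses, 87 became 486 with DESeq2 and 20 to 99 with 1 library left out. The stimulation counts of 6839 in KO and 7082 in WT were 4961 to 7011 and 5268 to 6711 with 1 library left out, 7222 and 7473 with DESeq2, and 6926 and 7433 with library size alone.

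The replicate number as a block gave 6656, 6866, 672, 229 and 60 calls in the order stimulation in KO, stimulation in WT, genotype after stimulation, genotype with PBS and difference, and changed no call of a member. No label tells whether same-numbered libraries share more than a number. The correlations of their deviations (-0.01 to 0.10) come from 1 pair of libraries per group and cannot settle this. With library size alone, the share of higher calls was 36.5% in place of 50.7% for stimulation in WT and 81.6% in place of 59.1% for genotype after stimulation, with median shifts over all genes to -0.20 and 0.13 on the log2 scale. A filter of 5 CPM in 2 libraries left out Olr1. Counts of 15 to 40 limit Olr1 with PBS, and groups of 2 limit every comparison.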

Other observations

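Alternative activation genes, among which Mrc1 is usually counted, did not all go with it. Of 18 listed, 13 were tested. In KO cells 3 rose and 5 fell on stimulation, with 1 in place of 3 rising without replicate 2 of KO with PBS, and in WT cells 3 rose and 5 fell. The medians were -0.27 and 0.06 on the log2 scale, against -0.03 and -0.01 over all tested genes. Of these, 39.1% in KO and 40.5% in WT cells were called in either direction. Gas6, a ligand of the TAM receptors that bridges dying cells to macrophages, had 43.3 and 44.9 CPM in stimulated KO cells against 460 and 510 CPM in KO cells with PBS, and in WT cells 47.96 and 49.97 CPM after stimulation against 517 and 530 CPM with PBS. It fell by 3.46 ± 0.08 in KO cells and by 3.42 ± 0.08 in WT cells (edgeR adjusted p = 6.27e-07 and 5.37e-07). Cd200r1, an inhibitory receptor, changed by -1.98 ± 0.12 in KO cells and by -1.498 ± 0.12 in WT cells (edgeR adjusted p = 2.40e-05 and 8.34e-05).

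Of 14 genes for shedding and trafficking of the receptors 13 were tested. In KO cells 1 rose and 3 fell on stimulation and in WT cells 3 rose and 4 fell, against 39.1% and 40.5% of all tested genes called in either direction, and the medians were -0.11 and -0.07. The 1 that rose in KO cells became 0 without either stimulated KO library or replicate 2 of KO with PBS, 2 without either WT library with PBS, and 3 with DESeq2. In WT cells the 3 that rose became 0 without replicate 2 of stimulated WT and 1 without replicate 1 of WT with PBS, and the 4 that fell became 2 without replicate 2 of WT with PBS. With library size alone 5 fell in KO cells and 7 in WT cells. Timp3, an inhibitor of ADAM17, had 25.3 and 20.4 CPM in stimulated KO cells against 37.0 and 28.1 CPM in KO cells with PBS, and in WT cells 9.29 and 7.76 CPM after stimulation against 19.9 and 19.5 CPM with PBS. It fell by 1.21 ± 0.18 on the log2 scale in WT cells (edgeR adjusted p = 0.00168), while in KO cells the change of -0.51 ± 0.17 gave no call (adjusted p = 0.0550); the difference of these responses was 0.70 ± 0.25 (adjusted p = 0.355). After stimulation it was higher in KO than in WT cells by 1.42 ± 0.18 (edgeR adjusted p = 0.00929), a call lost without replicate 1 of stimulated KO or replicate 2 of stimulated WT (adjusted p up to 0.0592). Cd63, a lysosomal tetraspanin, fell by 0.60 ± 0.07 in KO cells and by 0.43 ± 0.07 in WT cells (edgeR adjusted p = 5.66e-04 and 0.00268). Adam17, a protease that releases soluble CD163, rose by 0.82 ± 0.18 in WT cells (edgeR adjusted p = 0.0102), a call lost without replicate 2 of stimulated WT (adjusted p = 0.0560).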
